A study of Mus musculus with 24 samples.

Results

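Cytochrome P450 genes, whose mouse symbols begin with Cyp, encode heme enzymes that insert oxygen into drugs, fatty acids, steroids, bile acids and retinoids. Their probes were picked by symbol among the probes of a mouse gene expression array, leaving out pseudogene symbols: 120 probes of 95 genes, among 39429 probes of 29742 gene names in all. A probe was tested where the scanner software marked it well above background on at least 5 of the 24 arrays, which left 51 Cyp probes of 44 genes among 19643 probes tested. The choice used no group labels, but a probe bright in a single group could pass through the arrays of that group.

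RNA came from whole blood of male C57BL/6J mice, taken by cardiac puncture 24 h after irradiation into a stabilizing lysis solution. The KO-labelled mice carried the genotype label Gadd45aKO and gave 9 arrays after 7 Gy of x-rays and 5 arrays at 0 Gy. The mice labelled Gadd45aWT, called WT here, gave 5 arrays after 7 Gy and 5 arrays at 0 Gy. The design text calls the samples independent experiments. Age and the knockout allele are not given in the labels, and no label ties an array to an animal. Gadd45a encodes a stress sensor induced by DNA damage and named in the series as a suppressor of autoimmunity.

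The Gadd45a probe did not separate the labels as a knockout would. After 7 Gy its level was 0.02 ± 0.34 in KO-labelled arrays (SD, n = 9) and −1.19 ± 0.32 in WT arrays (SD, n = 5), and at 0 Gy it was 0.52 ± 0.16 in KO-labelled arrays (SD, n = 4) and 0.67 ± 0.24 in WT arrays (SD, n = 5). All levels here are the log2 of an array's signal minus that array's 75th percentile, where the percentile was taken over probes detected on every array. The dimmest probe well above background lay between −7.82 and −5.05 on KO-labelled 7 Gy arrays, so low levels have no order among themselves. The difference at 7 Gy was 1.21 ± 0.18 (SE, adjusted p = 5.29e-05) and that at 0 Gy was −0.15 ± 0.21 (adjusted p = 0.858). Whether the probe lies outside a deleted stretch was not tested, and the arrays are called KO-labelled throughout. The percentage of all probes well above background was 25.6 to 50.8 on KO-labelled 7 Gy arrays, 26.1 to 48.1 on KO-labelled 0 Gy arrays, 39.2 to 45.8 on WT 7 Gy arrays and 36.8 to 48.8 on WT 0 Gy arrays. KO-labelled 0 Gy replicates 1 and 4 differed by less than repeat spots of 1 array do and were counted as 1 sample, which makes n = 4 in that group. Other pairs came close but were counted apart. KO-labelled 7 Gy replicates 1 and 4 differed by 1.02 times as much as repeat spots, replicates 1 and 8 by 1.11 times. WT 7 Gy replicates 3 and 4 differed by 1.17 times as much. An alternative averaged pairs up to 1.5 times, and whether these arrays are independent samples was not tested.

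Most drug-metabolizing enzymes of the families Cyp1 to Cyp3 are made in hepatocytes, which also hold the Cyp4a omega-hydroxylases of fatty acids and the Cyp enzymes that turn cholesterol into bile acids. Blood cells make few of them. Cyp4f18 is the mouse enzyme by which neutrophils inactivate leukotriene B4, Cyp26b1 breaks down retinoic acid, and Cyp17a1, Cyp21a1 and Cyp19a1 make steroid hormones in the adrenal gland, gonads and other tissues. Because bulk blood was measured, fewer cells of a type and less RNA per cell cannot be told apart.

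The probes that carry the main result read short stretches of transcripts, and relatives within a Cyp subfamily can be alike there. The sequences below, from the deposited files, belong to 5 probes called higher after 7 Gy in WT arrays and are shown because they define what was measured. Coordinates are mm9. Per the files, the probes begin at base 925 of the target transcript for Cyp2e1, 1230 for Cyp2c29, 828 for Cyp2d9, 895 for Cyp2d12 and 1349 for Cyp3a59. In the Cyp3a59 probe the capitals mark the 24 bases that encode the heme-binding signature of P450 enzymes, where a cysteine holds the iron of the heme.
Cyp2e1, chr7:147956922-147956981, plus strand: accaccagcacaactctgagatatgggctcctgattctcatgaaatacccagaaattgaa
Cyp2c29, chr19:39403642-39403701, plus strand: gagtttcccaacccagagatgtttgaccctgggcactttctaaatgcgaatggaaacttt
Cyp2d9, chr15:82285582-82285641, plus strand: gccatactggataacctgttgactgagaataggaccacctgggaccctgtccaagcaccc
Cyp2d12, chr15:82388259-82388501, plus strand (span over a splice junction): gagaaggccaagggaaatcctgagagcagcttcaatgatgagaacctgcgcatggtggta
Cyp3a59, chr5:146920638-146920697, plus strand: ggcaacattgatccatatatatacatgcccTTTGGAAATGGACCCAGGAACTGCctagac

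Cyp4f18 had 2 probes, at chr8:74512381-74512440 and chr8:74512382-74512441 on the minus strand, 1 base apart in mm9. Their sequences share a run of 29 bases, shown in capitals, so they are readings of the same site and not independent evidence.
Cyp4f18, shared run: CTCCTATCCATCCACCCACCTGTGCCTTT
Probes of other members also shared stretches: a probe of Cyp4a10 and a probe of Cyp4a31 share 34 bases, and a probe of Cyp2c67 shares 25 bases with one of Cyp2c68. The Cyp2a4 probe matched both Cyp2a4 and Cyp2a5 in RefSeq, and a Cyp4a10 probe matched both Cyp4a10 and Cyp4a32, so signal from these pairs cannot be divided.

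The number of Cyp probes detected in blood differed widely between arrays. Of the 120 probes, 30 were not well above background on any array, 39 were on 1 to 4 arrays and 8 were on all 24. On KO-labelled 7 Gy arrays 13 to 51 Cyp probes were well above background (median 30), on KO-labelled 0 Gy arrays 10 to 48 (median 32), on WT 7 Gy arrays 35 to 74 (median 68) and on WT 0 Gy arrays 23 to 33 (median 27). Within WT 7 Gy the arrays fell apart: replicates 1 and 2 had 38 and 35, while replicates 3, 4 and 5 had 74, 74 and 68. Replicates 3, 4 and 5 had 45.8%, 42.9% and 39.2% of all probes well above background, against 41.4% and 40.9% on replicates 1 and 2. The array's 75th percentile signal was 1403, 1407 and 806 on replicates 3, 4 and 5, against 772 and 881 on replicates 1 and 2, and its part in these numbers was not tested.

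Of the well-known members, 8 were not well above background on any array: Cyp27a1 and Cyp8b1 of bile acid synthesis, Cyp51 of cholesterol synthesis, Cyp1a1 and Cyp1b1, which respond to aromatic hydrocarbons, Cyp11a1, which starts steroid synthesis, and Cyp27b1 and Cyp24a1, which activate and degrade vitamin D. Among members that passed on 1 to 4 arrays, Cyp7a1, the rate-limiting enzyme of bile acid synthesis, passed on 1 WT 7 Gy array, and Cyp1a2, the main caffeine oxidase of the liver, passed on 3 WT 7 Gy arrays. Cyp7b1, which hydroxylates oxysterols, passed on 3 WT 7 Gy arrays and 1 KO-labelled 0 Gy array. For the 39 probes that passed on 1 to 4 arrays, 75 of the 109 passing readings came from WT 7 Gy replicates 3 to 5, and 16 of the probes passed on no other array.

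**Figure D1:**
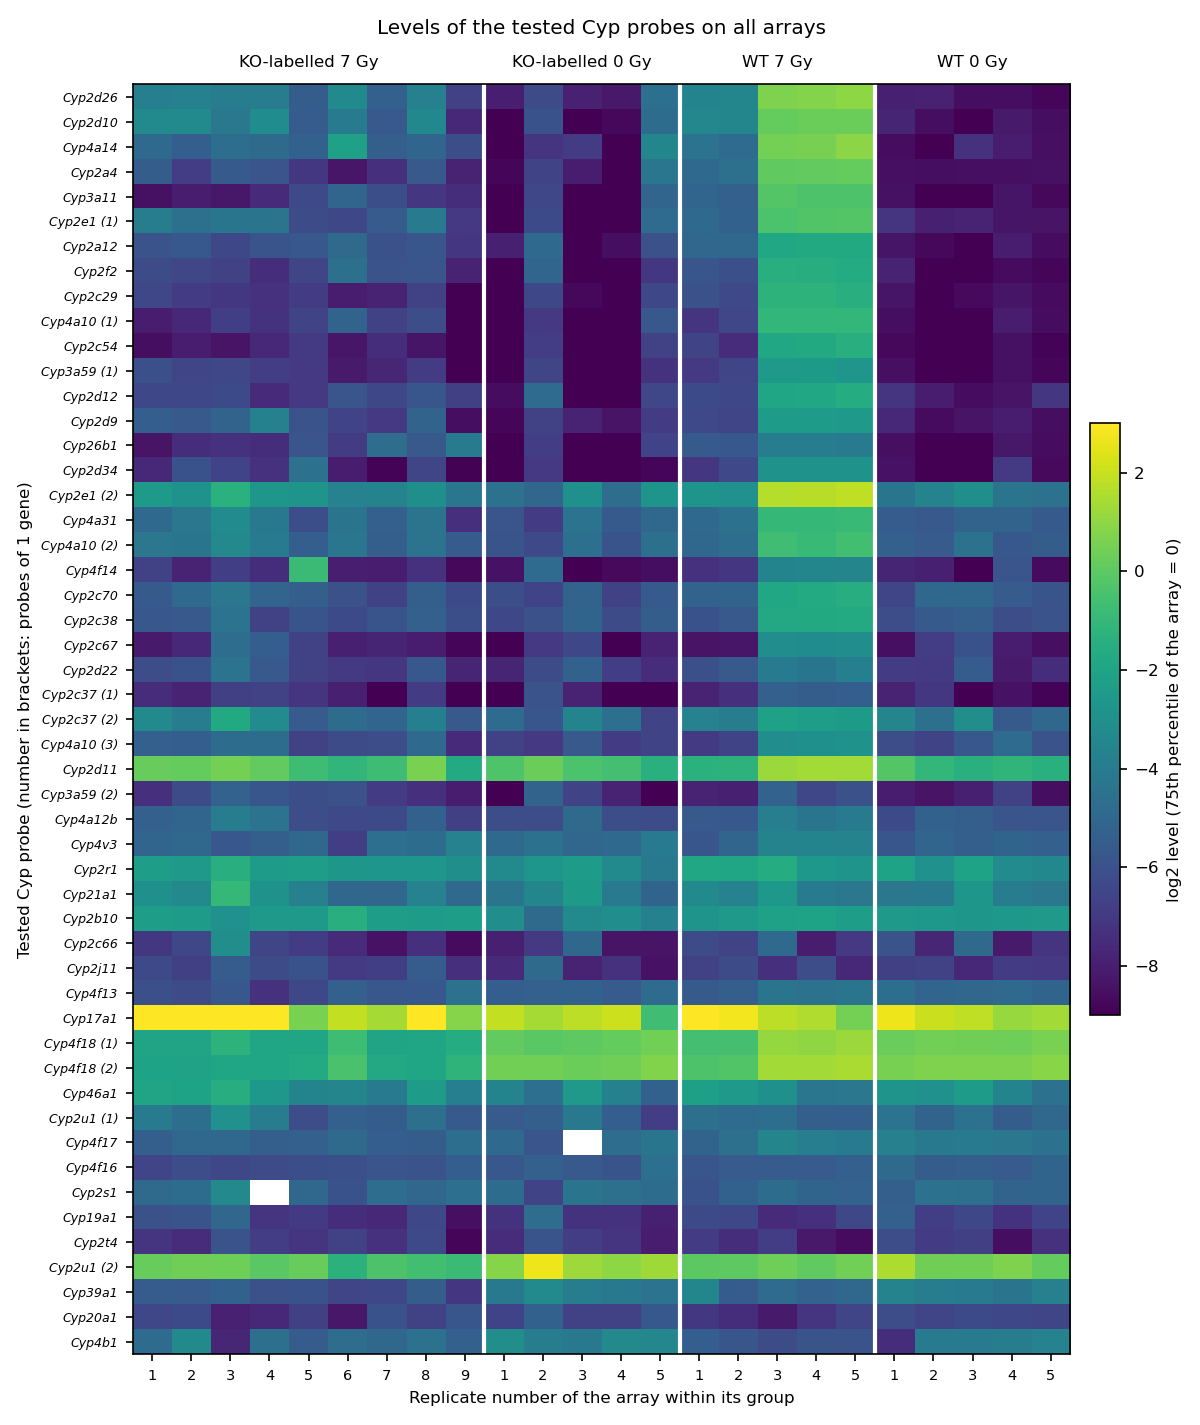
Level of each tested Cyp probe (rows, 51 probes, sorted by the fitted change after 7 Gy in WT) on each of the 24 arrays (columns, by group and replicate), as log2 relative to the array's 75th percentile; white cells are spots left out as outliers. WT 7 Gy replicates 3 to 5 stand out as bright in the upper rows, where WT 0 Gy arrays are near background, and the Cyp4f18 rows are darkest in KO-labelled 7 Gy arrays.

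In KO-labelled arrays, 7 Gy was set against 0 Gy to find the members that respond under that genotype label. Cyp2d10 and Cyp2d26, drug-metabolizing enzymes of the liver, Cyp2e1, which oxidizes ethanol, and Cyp2b10, the phenobarbital-inducible enzyme, rose. Cyp4f18, Cyp39a1, a bile acid enzyme that hydroxylates an oxysterol, Cyp2u1, a fatty acid hydroxylase, and Cyp4f16 fell. That is 4 probes of 4 genes higher and 5 probes of 4 genes lower of 51 tested, with limma at a Benjamini-Hochberg adjusted p under 0.05 over all probes, beside 12.1% of all probes called higher and 34.6% called lower. The median log2 change was 0.52 over the Cyp probes and −0.28 over all probes. With the replicate number, which marks a shared slide, as a block, 15 probes were higher and 7 lower, beside 22.6% and 39.8% of all probes.

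Cyp4f18 had levels in KO-labelled 7 Gy arrays with a lowest of −2.08, a median of −1.88 and a highest of −0.45, against 0.44, 0.43, 0.30, 0.41 and 0.73 in the KO-labelled 0 Gy replicates 1 to 5. No irradiated KO-labelled array reached the lowest unirradiated one. The change was −2.12 ± 0.32 (log2, SE; 4.36-fold lower, adjusted p = 1.33e-05), and within slides 1 to 5, each holding 1 array of every group, it ran from −2.51 to −2.19. The other probe at the site gave −1.82 ± 0.30 (adjusted p = 4.19e-05). Of 12 neutrophil genes, 6 fell and 0 rose in the same comparison, beside 34.6% and 12.1% of all probes. Their mean level was −2.64 to −1.15 on KO-labelled 7 Gy arrays, against −1.81 to −1.07 on KO-labelled 0 Gy arrays. Their part in the Cyp4f18 change was not tested.

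Cyp39a1 ranged from −7.11 to −5.29 in KO-labelled 7 Gy arrays with a median of −5.96, against −4.14, −3.27, −3.94, −4.14 and −4.44 in KO-labelled 0 Gy arrays. The groups did not overlap, and 5 of the 9 irradiated arrays were well above background. The change was −2.03 ± 0.34 (4.07-fold lower, adjusted p = 4.33e-05).

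Cyp2u1 was measured by 2 probes that did not give the same picture. The brighter one ranged from −1.29 to 0.38 in KO-labelled 7 Gy arrays with a median of −0.07, against 0.81, 2.71, 1.25, 0.94 and 1.27 in KO-labelled 0 Gy arrays, a change of −1.75 ± 0.33 (3.35-fold lower, adjusted p = 0.000164). The dimmer one changed by 0.71 ± 0.47 (adjusted p = 0.232). With the replicate block the brighter probe was lower, at −1.17 (adjusted p = 0.00443), and the dimmer one higher, at 1.11 (0.0103). Cyp4f16 fell by 0.71 ± 0.21 on the log2 scale (1.64-fold lower, adjusted p = 0.00653), with overlapping groups and 3 of 9 irradiated arrays well above background. Its call was lost without KO-labelled 0 Gy replicate 5, at −0.47 (adjusted p = 0.0638), and without replicates 2 and 5, at −0.34 (0.296).

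Cyp2b10 was detected on all but 1 of the 24 arrays. Its level was −2.95 at the lowest, −2.35 at the median and −1.43 at the highest in KO-labelled 7 Gy arrays, against −3.07, −4.84, −3.28, −3.12 and −3.75 in KO-labelled 0 Gy arrays. The groups did not overlap and the change was 1.40 ± 0.26 (2.65-fold, adjusted p = 0.000122). The lowest value, of replicate 2, was not well above background and came from 1 of the 4 arrays whose repeat spots varied most. Without KO-labelled 0 Gy replicates 2 and 5 the change was 0.85 (adjusted p = 0.0155).

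Cyp2d26 lay between −6.65 and −3.30 in KO-labelled 7 Gy arrays with a median of −3.89, against −8.00, −6.26, −7.89, −8.18 and −4.62 in KO-labelled 0 Gy arrays, where replicate 5 alone was well above background. Replicates 2 and 5 both lay above the lowest irradiated array, so the groups overlapped. The fitted change was 2.28 ± 0.83 (log2, adjusted p = 0.0274). That of Cyp2d10 was 2.84 ± 0.93 (adjusted p = 0.0148) and that of the Cyp2e1 probe printed above 2.36 ± 0.96 (adjusted p = 0.0476). Each of the 3 was well above background on 1 of the 5 KO-labelled 0 Gy arrays, so the sizes rest on dim readings. Without KO-labelled 0 Gy replicate 3 all 3 lost their call, with adjusted p = 0.0986 for Cyp2d26, 0.0811 for Cyp2d10 and 0.178 for Cyp2e1, and the Cyp2e1 call was lost on leaving out any of 12 of the 24 arrays. The other Cyp2e1 probe, which was brighter, changed by 0.90 ± 0.78 (adjusted p = 0.367). Within slides 1 to 4 the differences of the 3 called probes were positive, and on slide 5 they were −0.84 for Cyp2d26, −0.73 for Cyp2d10 and −1.37 for Cyp2e1.

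Replicates 2 and 5 of the KO-labelled 0 Gy group were also the highest of their group in liver genes. A list of 29 measured hepatocyte genes, headed by albumin (Alb), had a mean level of −5.46 to −2.84 on KO-labelled 7 Gy arrays and of −7.98, −5.09, −7.66, −7.86 and −4.30 on the KO-labelled 0 Gy replicates 1 to 5. Of its 28 tested genes, 22 rose and 0 fell in KO-labelled arrays, beside 12.1% and 34.6% of all probes. Alb, the most abundant plasma protein, had a median level of −0.74 on KO-labelled 7 Gy arrays, against −7.46, −2.74, −7.71, −7.67 and −1.72 on KO-labelled 0 Gy arrays. Without replicates 2 and 5, 10 Cyp probes were higher and 4 lower, beside 1874 and 4539 of all 19643 probes tested. Cyp26b1 then joined the higher Cyp probes at 3.02 (adjusted p = 0.00691). The part of liver RNA in the Cyp values was not tested.

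In WT arrays, 7 Gy against 0 Gy asks the same question under the other label. Most of the drug-metabolizing members tested rose. In all, 23 probes of 21 genes were higher and 0 were lower by limma, of 51 tested, beside 9.71% of all probes called higher and 13.5% called lower. The median log2 change was 1.45 over the Cyp probes and −0.05 over all probes. The drug-metabolizing families supplied 18 of the 23, of 26 tested. Fatty acid enzymes supplied 4 of 17 tested, all Cyp4a, and Cyp26b1 was the remaining one. The detection filter bears on these counts and on the Cyp median. The called probes of Cyp26b1, Cyp2c29, Cyp2c37, Cyp2c54, Cyp2d34, Cyp3a11 and Cyp3a59, and a Cyp4a10 probe, reached 5 arrays only with the help of WT 7 Gy arrays. With no filter on dim probes the Cyp median in WT was 0.75, beside 0.07 over all probes. Beside the 0 lower calls of limma, 2 probes had an unadjusted p under 0.05, and with the replicate block 2 were called lower, Cyp20a1 and Cyp39a1 (−0.86, adjusted p = 0.0302), beside 18.9% of all probes. None of the 3 tested steroid enzymes, 2 bile acid or oxysterol enzymes or 1 vitamin D enzyme passed the test in WT arrays.

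Cyp2d26 had levels of −3.57, −3.52, 0.70, 0.77 and 0.95 in WT 7 Gy replicates 1 to 5, against −7.93, −7.90, −8.55, −8.56 and −8.84 in WT 0 Gy replicates 1 to 5. Every irradiated array was above every unirradiated one, and replicates 3 to 5 were brighter than replicates 1 and 2. No 0 Gy array was well above background, so the change is a bound: at least 62.9-fold higher (adjusted p = 1.05e-06). Such bounds set the irradiated mean against the higher of each 0 Gy array's lowest detectable signal and the probe's own signal there. Within slides the difference was 4.36, 4.39, 9.25, 9.34 and 9.79.

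Cyp3a11, the main drug-oxidizing enzyme of the Cyp3a subfamily in mouse liver, showed the same split. Its levels were −5.10, −5.33, −0.21, −0.34 and −0.34 in WT 7 Gy arrays, against −8.44, −9.54, −9.35, −8.31 and −8.74 in WT 0 Gy arrays, none of them well above background. It was at least 25-fold higher (adjusted p = 3.16e-05). Other members of this kind were Cyp2d10 at least 51.2-fold higher (adjusted p = 7.42e-06), Cyp4a14, a fatty acid omega-hydroxylase, at least 42.8-fold (4.49e-05), and the Cyp2a4 probe, for steroid hydroxylases of the liver, at least 34.0-fold (1.81e-05).

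Smaller bounds were found for further drug-metabolizing members, all with levels between −2.87 and −1.22 in WT 7 Gy replicates 3 to 5 and none well above background at 0 Gy. Cyp2a12 was at least 14.5-fold higher (adjusted p = 5.01e-06), Cyp2c29 at least 12.6-fold (7.62e-05), Cyp2f2 at least 12.2-fold (9.58e-05), Cyp2d12 at least 9.79-fold (0.00118), Cyp2c54 at least 8.57-fold (0.000223), Cyp2d9 at least 7.33-fold (0.000553) and Cyp2d34, the only one of these whose groups overlapped, at least 5.69-fold (0.00138). At 7 Gy, Cyp2d9 and Cyp2d34 were not well above background on WT replicates 1 and 2, nor were Cyp2c29, Cyp2c54 and Cyp2d12 on replicate 2. The irradiated means of these 5 members include those dim readings, so their bounds are approximate. Cyp2f2 is known for bioactivation of naphthalene in lung club cells and is also made in liver. Of 10 lung epithelium genes on the array, 5 were not well above background anywhere. Of the 4 tested, 0 were higher and 1 was lower in WT, beside 9.71% and 13.5% of all probes. Their part in the Cyp2f2 value was not tested.

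Cyp2e1 was readable in every WT array with its brighter probe. Its levels were −2.81, −2.92, 1.66, 1.72 and 1.86 in WT 7 Gy arrays, against −4.32, −3.63, −3.04, −4.39 and −4.54 in WT 0 Gy arrays, and the groups did not overlap. The change was 3.89 ± 0.82 (14.8-fold, adjusted p = 0.00125). The other probe, printed above, was not well above background at 0 Gy and was at least 26.3-fold higher (adjusted p = 0.000183). Without replicates 3 to 5 the brighter probe changed by 1.12 (adjusted p = 0.374).

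Cyp26b1, which clears retinoic acid, had a narrower gap between its irradiated arrays than Cyp2d26 or Cyp3a11. Its levels were −5.60, −5.70, −3.97, −3.91 and −4.02 in WT 7 Gy arrays, against −8.50, −9.41, −9.28, −8.24 and −8.61 in WT 0 Gy arrays, none of which was well above background. It was at least 4.81-fold higher (adjusted p = 0.000152). Without replicates 3 to 5 the change kept its call at 3.16 (adjusted p = 0.0426). That fit leaves WT 7 Gy replicates 1 and 2, which differed by 1.33 times as much as repeat spots of 1 array do.

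Cyp4f18, lower after irradiation in KO-labelled arrays, did not pass the test in WT arrays. Its levels were −0.33, −0.25, 1.33, 1.31 and 1.46 in WT 7 Gy arrays, against 0.53, 0.66, 0.67, 0.69 and 0.85 in WT 0 Gy arrays. Replicates 1 and 2 lay below all unirradiated WT arrays and replicates 3 to 5 above them, and the change was 0.02 ± 0.34 (adjusted p = 0.978). Without replicates 3 to 5 it was −0.97 (adjusted p = 0.0652), and the other probe at the site turned to a called decrease, −0.95 (adjusted p = 0.0423).

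Several members with roles outside liver drug metabolism did not pass the test in either response. Cyp2r1, a vitamin D hydroxylase, changed by 0.69 ± 0.33 in KO-labelled arrays (adjusted p = 0.0944) and by 0.58 ± 0.35 in WT arrays (0.265). Cyp20a1, an orphan member with no settled substrate, changed by −0.79 ± 0.40 in KO-labelled arrays (0.11) and by −0.88 ± 0.42 in WT arrays (0.144). Cyp4v3, a fatty acid hydroxylase, changed by −0.48 ± 0.43 in KO-labelled arrays (0.38) and by 1.0 ± 0.45 in WT arrays (0.123). Cyp2s1, an epithelial member, changed by 0.29 ± 0.39 in KO-labelled arrays (0.56) and by −0.33 ± 0.40 in WT arrays (0.637). With the replicate number as a block, Cyp2r1 passed at 0.97 in KO-labelled arrays (adjusted p = 0.00118) and 0.58 in WT arrays (0.0491), Cyp20a1 at −0.82 in KO-labelled arrays (0.0249) and −0.88 in WT arrays (0.0335), and Cyp4v3 at 1.0 in WT arrays (0.0327).

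Probes of Cyp17a1 and Cyp2d11 were bright throughout, with median levels of 3.02 and 0.10 in KO-labelled 7 Gy arrays, and neither passed the test in a response (adjusted p = 0.0985 and 0.789 in KO-labelled arrays, 0.941 and 0.0898 in WT arrays). Cyp17a1 is a steroid hydroxylase of the gonads and adrenal gland. With the replicate block it was higher in KO-labelled arrays, at 1.52 (adjusted p = 0.00195). Without KO-labelled 0 Gy replicates 2 and 5 its change there was 0.45 (adjusted p = 0.709). In WT arrays Cyp2d11 differed within slides 1 to 5 by −1.11, −0.18, 2.56, 2.44 and 2.69. It was called higher there on leaving out WT 7 Gy replicate 1 or replicate 2.

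**Figure D2:**
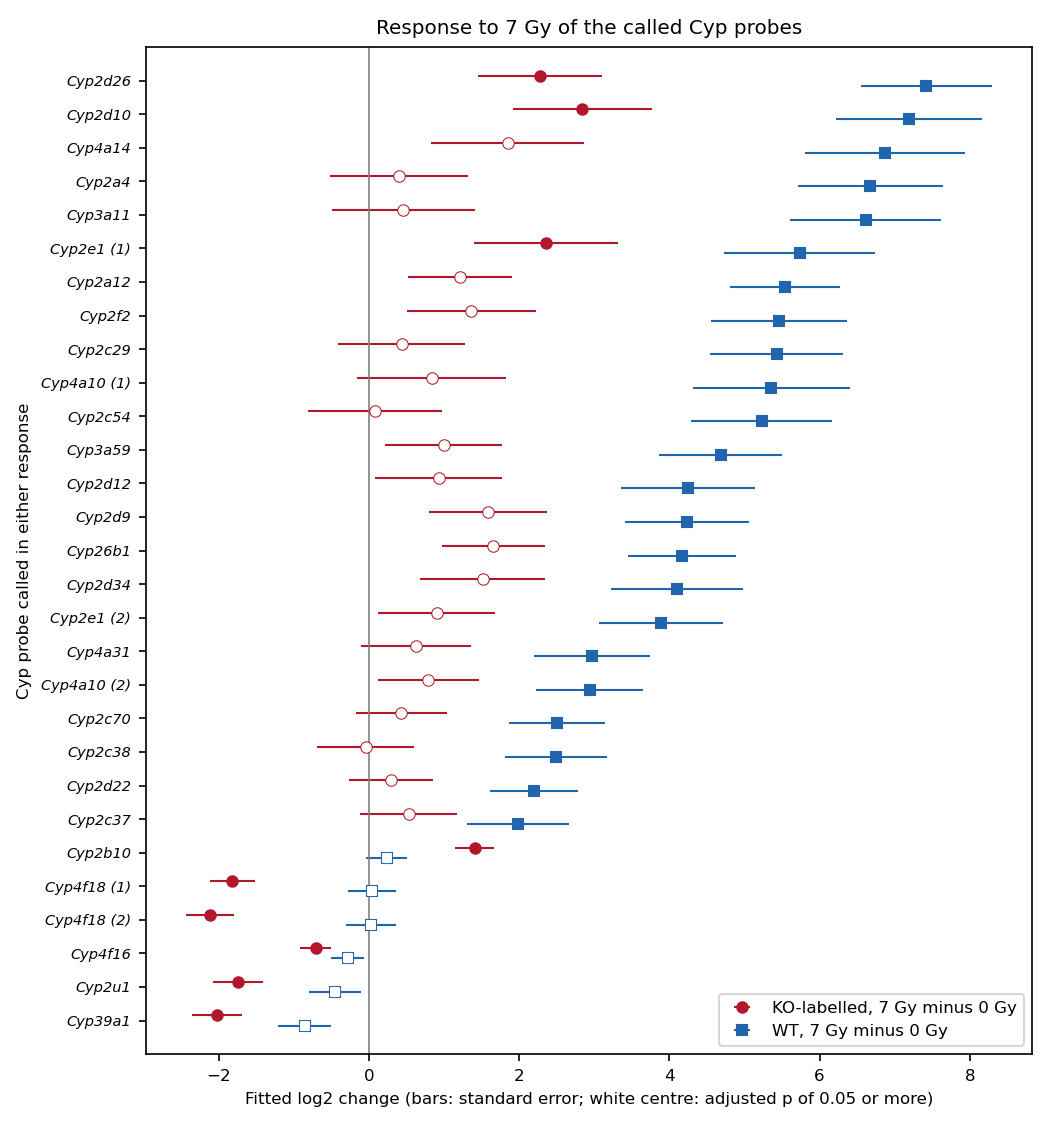
Fitted log2 change from 0 Gy to 7 Gy (x axis, bars are standard errors) of the 29 Cyp probes called in either response (rows), in KO-labelled arrays (circles) and WT arrays (squares); a white centre marks an adjusted p of 0.05 or more. The 23 probes called in WT lie between 1.98 and 7.42 there, and the 5 probes called lower in KO-labelled arrays, of Cyp4f18, Cyp39a1, Cyp2u1 and Cyp4f16, lie between −2.12 and −0.71; changes of probes near background at 0 Gy depend on dim readings.

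The WT 7 Gy arrays with high Cyp levels were the ones with high liver genes. The hepatocyte list had a mean level of −3.04, −3.00, 0.83, 0.86 and 0.84 on WT 7 Gy replicates 1 to 5, against −7.74 to −7.23 on WT 0 Gy arrays. Of its 28 tested genes, 27 rose and 0 fell in WT, beside 9.71% and 13.5% of all probes. Alb was at −0.66, −0.46, 3.72, 3.99 and 4.16 in WT 7 Gy arrays, against −7.56 to −7.04 in WT 0 Gy arrays, at least 526-fold higher (adjusted p = 4.46e-07). Of 10 heart muscle genes on the array 2 were tested, and of 8 kidney tubule genes 3. Limma called 0 of these in either response. The shares over all probes were 12.1% higher and 34.6% lower in KO-labelled arrays, and 9.71% and 13.5% in WT arrays. So few tested genes cannot show whether RNA of these tissues changed. The part of liver RNA in these Cyp values was not tested.

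Without WT 7 Gy replicates 3 to 5, 8 of the 23 calls remained: Cyp26b1, Cyp2a12, Cyp2a4, Cyp2c29, Cyp2d10, Cyp2d26, Cyp3a11 and Cyp4a14 were higher, beside 4.62% of all probes, and 1 Cyp4f18 probe was lower, beside 5.59%. The Cyp median was then 0.54. Every fit without replicates 3 to 5 leaves only WT 7 Gy replicates 1 and 2. The alternative that averaged further near-identical arrays counted these as 1 sample, so the calls kept may rest on little more than that. With no filter on dim probes, 41 of all 120 Cyp probes were higher in WT, beside 3.68% of all probes. Of the 23 probes, 20 were higher at 7 Gy on each of the 5 slides, the exceptions being the called probes of Cyp2c37, Cyp2c38 and Cyp2c70.

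**Figure D3:**
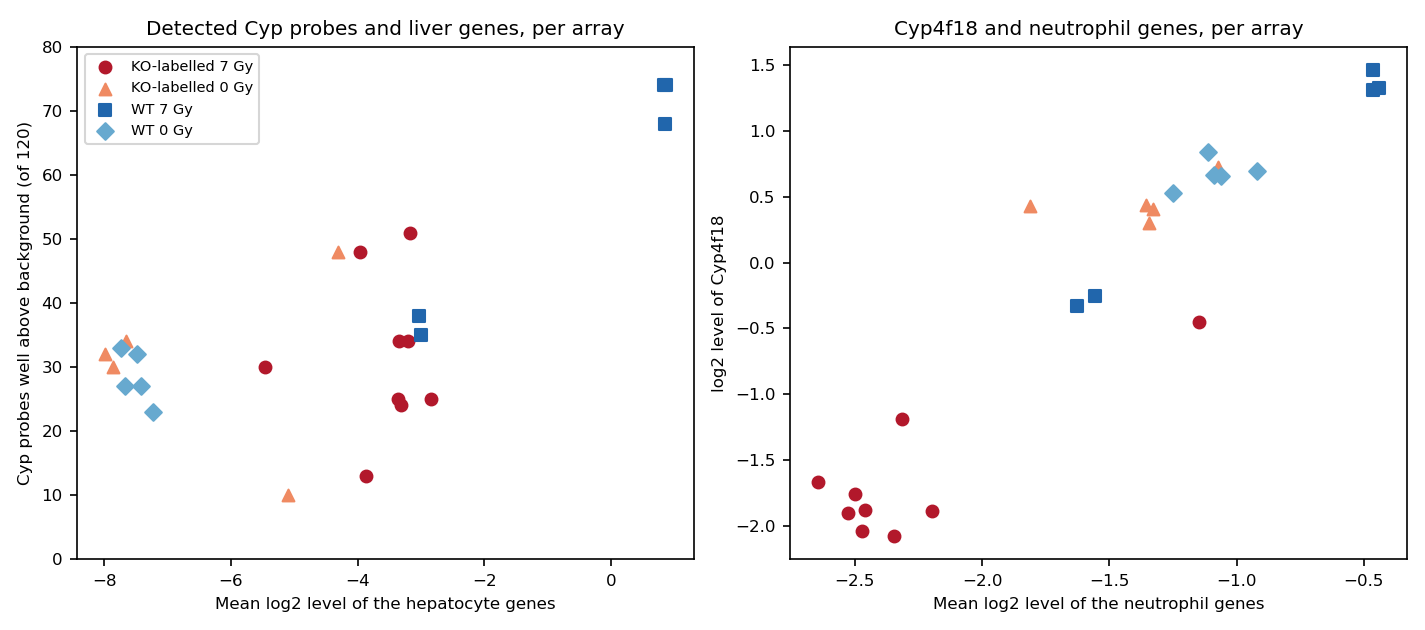
Left, the number of the 120 Cyp probes well above background (y axis, linear from 0) against the mean log2 level of 29 hepatocyte genes (x axis), 1 point per array; right, the log2 level of Cyp4f18 against the mean log2 level of 12 neutrophil genes. WT 7 Gy replicates 3 to 5 lie apart at the upper right of both panels, with 68 to 74 Cyp probes detected.

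The difference of the responses, KO-labelled minus WT, was tested as an interaction. It was lower for 13 probes of 12 genes and higher for 1 probe, of 51 tested, beside 11.5% of all probes called lower and 3.19% called higher. The Cyp median was −1.86 and that of all probes −0.27. Those lower included Cyp2a4 at −6.28 ± 1.33 (adjusted p = 0.00541), Cyp3a11 at −6.15 ± 1.38 (0.00708), Cyp2c54 at −5.15 ± 1.29 (0.0122) and Cyp2d26 at −5.15 ± 1.20 (0.00849). These 4 probes were well above background on 1 KO-labelled 0 Gy array and no WT 0 Gy array, so the sizes rest on dim readings and have no order. Cyp4f18 differed by −2.15 ± 0.46 (0.00581), and Cyp2b10 was the 1 probe higher, by 1.17 ± 0.37 (0.0393). With the replicate block, Cyp2b10 was at 0.85 (0.0831) and Cyp2d10, at −4.36 ± 1.34 (0.0337) without it, was at −3.41 (0.0659), and 2 other probes were higher, beside 12.8% of all probes. Without WT 7 Gy replicates 3 to 5, limma called 0 Cyp probes in either direction. It also called 0 when more pairs of near-identical arrays were averaged and when replicates 2 and 5 of the KO-labelled 0 Gy group were dropped. The detection filter bears on the interaction too, since called probes such as those of Cyp3a11, Cyp2c54 and Cyp2c29 passed it only with WT 7 Gy arrays. With no filter on dim probes, 10 of 120 Cyp probes were lower and 0 higher, beside 845 and 165 of all 39429. The medians were then −0.74 over the Cyp probes and 0.12 over all probes.

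Between labels at 7 Gy, KO-labelled against WT arrays, 26 probes of 23 genes were lower and 0 higher by limma (0 higher also at an unadjusted p under 0.05), beside 17.5% of all probes called lower and 4.55% called higher. The KO-labelled values are the same 9 arrays as above, and the medians were −1.49 over the Cyp probes and −0.13 over all probes. The detection filter bears on these values too, since called probes such as those of Cyp3a11 and Cyp2c29 passed it only with WT 7 Gy arrays. With no filter on dim probes, 35 of 120 Cyp probes were lower and 0 higher, beside 2285 and 544 of all 39429. The medians were then −0.58 over the Cyp probes and 0.23 over all probes. Of the 26 probes, 16 were lower on each of the 5 slides. Groups did not overlap for 4 of the 26, and the share over all probes was not counted. Cyp3a11 differed by −4.88 ± 0.88 (log2, adjusted p = 0.000435), with 2 of 9 KO-labelled arrays well above background. Cyp2a4 differed by −4.83 ± 0.85 (0.000344), with 4 of 9 KO-labelled arrays well above background, and its groups did not overlap. Cyp2c29 differed by −4.09 ± 0.78 (0.000687), also without overlap, and was well above background on 1 of 9 KO-labelled arrays. Cyp2d34, at −2.75 ± 0.77 (0.013), was at −1.99 (0.0608) with the replicate block, which called 2 probes higher, beside 14.1% of all probes.

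Cyp4f18 kept its call in this comparison without WT 7 Gy replicates 3 to 5. It was lower by −2.36 ± 0.30 in KO-labelled arrays at 7 Gy (5.12-fold lower, adjusted p = 1.23e-05), and by −1.36 (0.0123) without those arrays, when its 2 probes were the only Cyp calls. Over all probes, lower calls fell from 3431 to 1166 in the fit without those arrays, so a lost call does not show that a member rests on them. Within slides 1 to 5 the Cyp4f18 difference ran from −3.22 to −1.71. On slides 1 and 2, Cyp3a11 differed by −3.34 and −2.71 and Cyp26b1 by −2.76 and −1.73, against 0.29 and 0.09 for the brighter Cyp2e1 probe. Neutrophil genes had a mean level of −2.64 to −1.15 on KO-labelled 7 Gy arrays, against −1.63, −1.55, −0.44, −0.46 and −0.46 on WT 7 Gy arrays. Of the 12, 8 were lower and 1 higher, beside 17.5% and 4.55% of all probes. Their part in the Cyp4f18 difference was not tested.

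Other members lower in KO-labelled arrays at 7 Gy included Cyp39a1 at −1.17 ± 0.31 (adjusted p = 0.00946), Cyp4f13 at −1.04 ± 0.31 (0.0193) and Cyp4f17 at −0.91 ± 0.25 (0.0131), all of them with overlapping groups. At 0 Gy, KO-labelled against WT, limma called 0 Cyp probes higher or lower, beside 0.158% and 0.0713% of all probes, with 1 higher and 2 lower at an unadjusted p under 0.05, and the medians were 0.11 over the Cyp probes and 0.10 over all probes.

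Cyp enzymes need electrons from reductases, heme, and companions of drug metabolism, and lists of these were chosen by function. Of 16 tested other enzymes of drug metabolism, 5 were higher and 0 lower in KO-labelled arrays, beside 12.1% and 34.6% of all probes. In WT arrays 14 were higher and 1 lower, beside 9.71% and 13.5% of all probes. The median changes were 1.01 in KO-labelled arrays and 3.05 in WT arrays, beside −0.28 and −0.05 over all probes. In KO-labelled arrays the glutathione transferase Gstt1 rose by 3.76 on the log2 scale (adjusted p = 4.85e-05) and the sulfotransferase Sult1a1 by 3.40 (2.56e-05). In WT arrays the carboxylesterase Ces3a, whose probe also matches Ces3b, was at least 36.6-fold higher (1.76e-06), the alcohol dehydrogenase Adh1 at least 39.5-fold (2.93e-06) and the carboxylesterase Ces1c at least 16-fold (3.83e-05), while the glutathione transferase Gsta3 rose by 6.34 (9.03e-06).

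The counts that follow stand beside 12.1% of all probes called higher and 34.6% lower in KO-labelled arrays, and 9.71% higher and 13.5% lower in WT arrays. Of 7 electron transfer genes, such as the P450 reductase Por, 2 were higher and 2 lower in KO-labelled arrays, and 3 higher and 0 lower in WT arrays. Of 13 tested transcription factors that control Cyp genes, 3 were higher and 2 lower in KO-labelled arrays, and 5 higher and 1 lower in WT arrays. Of 13 tested genes of the sterol pathway that Cyp51 belongs to, 1 was higher and 6 lower in KO-labelled arrays, and 1 higher and 2 lower in WT arrays. Squalene epoxidase, Sqle, fell by 2.86 in KO-labelled arrays (adjusted p = 1.06e-07). Of 9 genes of heme supply, 2 were higher and 3 lower in KO-labelled arrays, and 0 higher and 5 lower in WT arrays. Coproporphyrinogen oxidase, Cpox, fell by 2.49 in KO-labelled arrays (1.73e-08).

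Promoters were read for motifs of hepatocyte nuclear factors, since these factors are known to drive liver Cyp genes. In the 250 bases before the start, on either strand, the HNF4-type letters CAAAGTCCA stood in 8 of 72 Cyp genes with a promoter in the RefSeq table (11.1%), in 3 of 31 tested ones (9.68%) and in 122 of all 27025 genes (0.451%). Of the 14 genes called higher in WT that have a promoter there, 2 held it, and of the 17 other tested genes, 1 did. The HNF1 half-site letters GTTAAT stood in 8 of 72 Cyp genes (11.1%) and in 7.49% of all genes. A match is a run of letters and no measured binding. The 250 bases before the start of the 2 called genes that hold CAAAGTCCA follow, on the gene's strand in GRCm38.p6, with the match in capitals.
Cyp3a11, chr5:145879855-145880104, minus strand: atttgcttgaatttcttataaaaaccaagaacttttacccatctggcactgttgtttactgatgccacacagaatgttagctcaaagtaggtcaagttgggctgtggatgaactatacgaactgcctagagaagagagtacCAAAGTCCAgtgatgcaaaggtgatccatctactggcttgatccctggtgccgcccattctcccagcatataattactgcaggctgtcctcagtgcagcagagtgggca
Cyp2c70, chr19:40187287-40187536, minus strand: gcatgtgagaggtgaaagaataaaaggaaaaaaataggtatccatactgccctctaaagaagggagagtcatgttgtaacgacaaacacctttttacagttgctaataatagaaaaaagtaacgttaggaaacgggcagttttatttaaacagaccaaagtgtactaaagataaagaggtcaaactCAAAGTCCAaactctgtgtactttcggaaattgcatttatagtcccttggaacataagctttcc
The match begins 109 bases before the start in Cyp3a11 and 64 bases before it in Cyp2c70. Cyp2c70, an enzyme of bile acid hydroxylation in mouse liver, had levels of −5.16, −5.17, −1.78, −1.68 and −1.54 in WT 7 Gy arrays, against −6.49, −4.96, −5.0, −5.54 and −5.87 in WT 0 Gy arrays, a change of 2.51 ± 0.64 (adjusted p = 0.00581) with overlapping groups.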

How the data were processed

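The authors hybridized Cy3-labelled cRNA to 1-colour Agilent arrays, and the deposited intensity of each spot is the processed signal of Agilent Feature Extraction 12.0.2, named in the submitters' processing notes, per the file headers already background-subtracted. The deposited value table holds log2 values on a scale that no header states. Against the scanner files it differed from log2 processed signal by a fixed offset on each array (0 to 1.54), with column medians of 5.76 to 7.18, and served as an alternative.

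Control spots and spots marked as outliers were left out, spots of a probe were averaged in log2, and an array's 75th percentile among 7797 probes detected everywhere was subtracted. Probes that passed the filter of 5 arrays were fitted in 1 limma model of the 4 groups (limma 3.58.1, R 4.3.3) with Benjamini-Hochberg adjustment over 19643 probes. The fitted change is on the log2 scale. KO-labelled 0 Gy replicates 1 and 4 were averaged, leaving 23 units. Per the file headers, slides 1 to 5 each hold 1 array of every group with the same replicate number, and slide 6 holds KO-labelled 7 Gy replicates 6 to 9. Same-numbered arrays deviated from their group means with a median correlation of 0.18 over 30 pairs (lowest −0.23), and other pairs with −0.02. The number of arrays limits the precision. Alternatives were other scalings, normexp background correction, other filters, slide or replicate blocks, and arrays left out. The block fits did not average KO-labelled 0 Gy replicates 1 and 4. With the replicate block, KO-labelled 7 Gy replicates 6 to 9 did not bear on any comparison. Leaving out KO-labelled 0 Gy replicates 2 and 5 was chosen after seeing the data. Named genes were up to 15 called members per direction and comparison by size of change, 20 members named whatever their values, and up to 4 called partners per response; any tested member could be named besides. The Cyp members, the gene lists and the tests were chosen with earlier results of these data known. Scripts were tested on simulated data.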

Additional observations from a re-analysis of the deposited data

Results flagged for a closer look

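In 3 of 108 groups examined, 1 array of the KO-labelled 7 Gy group stood apart by Dixon's criterion, which chance alone meets in about 1 in 20 groups. Replicate 6 was highest for Cyp2b10 at a level of −1.43 and for Cyp4a14 at −2.16, and replicate 3 was highest for Cyp2r1 at −1.42.

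Among the 27 named probes examined, the responses under the 2 labels differed by the interaction test (limma, KO-labelled minus WT, log2) for 11 genes. Cyp3a59 and 1 Cyp4a10 probe also passed that test, at −3.69 and −4.52, but were not among the 27. Cyp2b10 differed by 1.17. The others were lower: Cyp2a4 by −6.28, Cyp3a11 by −6.15, Cyp2c54 by −5.15, Cyp2d26 by −5.15, Cyp4a14 by −5.02, Cyp2c29 by −5.0, Cyp2d10 by −4.36, Cyp2a12 by −4.33, Cyp2f2 by −4.10 and Cyp4f18 by −2.15 and −1.86 with its 2 probes.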

How the results depend on the processing

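Of 72 called results for single Cyp probes, 51 were followed as named ones, and of these 50 kept their call with median scaling, 48 with the replicate block, 40 with any single array left out, 38 without KO-labelled 0 Gy replicates 2 and 5 (an alternative chosen after seeing the data), 35 with no scaling, 30 with further near-identical arrays averaged, 17 without WT 7 Gy replicates 3 to 5 and 12 with normexp. Of counts of Cyp calls, KO-labelled higher (4) became 8 with the percentile over all probes, 7 with median scaling, quantile normalization or every array its own sample, 1 with no scaling, normexp or near-identical arrays averaged, 2 with no filter, 0 with probes above background on all arrays, 16 with slide as a fixed block, 11 as a random block, 15 with the replicate block and 10 without KO-labelled 0 Gy replicates 2 and 5. KO-labelled lower (5) became 3 with normexp or probes above background on all arrays and 2 in the value table. WT higher (23) became 9 with normexp, 41 of 120 with no filter, 0 with probes above background on all arrays and 8 without WT 7 Gy replicates 3 to 5. WT lower (0) became 1 with no scaling, the value table, slide blocks, the 4 noisiest arrays out or WT 7 Gy replicates 3 to 5 out, and 2 with the replicate block. The interaction higher count (1) became 2 with the replicate block and 0 with no scaling, normexp, the value table, no filter, probes above background on all arrays, every array its own sample, near-identical arrays averaged, or the noisiest, the WT or the KO-labelled arrays named above left out. The interaction lower count (13) became 0 with no scaling, normexp, near-identical arrays averaged, or the WT or KO-labelled arrays left out, 1 in the value table, 3 with probes above background on all arrays and 8 without the noisiest. At 7 Gy, KO-labelled over WT higher (0) became 1 in the value table or without the noisiest and 2 with slide as a fixed block or the replicate block, and lower (26) became 2 with normexp, probes above background on all arrays or the WT arrays left out, 16 in the value table and 12 with near-identical arrays averaged. Leaving out 1 array gave 3 to 9 and 4 to 6 (KO-labelled higher and lower, 9 without KO-labelled 0 Gy replicate 2), 22 to 27 and 0 to 1 (WT), 0 to 1 and 8 to 22 (interaction, 8 without KO-labelled 0 Gy replicate 5 or WT 7 Gy replicate 3, 4 or 5, and 22 without WT 7 Gy replicate 1), 0 and 17 to 31 (7 Gy, 17 without WT 7 Gy replicate 5), and 0 and 0 to 1 (0 Gy). The change of Cyp4f16 in KO-labelled arrays reversed to 0.50 with normexp, that of a Cyp4f18 probe in WT to −0.95 and the 7 Gy difference of Cyp2c38 to 0.040 without WT 7 Gy replicates 3 to 5. Counts over all probes moved as well, and only some are given here. KO-labelled higher (2369 of 19643) became 3721 with the percentile over all probes, 435 with no scaling and 4130 with slide as a fixed block. WT higher (1907) became 402 with normexp and 908 without WT 7 Gy replicates 3 to 5. Interaction lower (2255) became 0 with no scaling, normexp or near-identical arrays averaged. Lower at 7 Gy (3431) became 136 with normexp and 1166 without those WT arrays. The causes were not tested. Probes near background limit all of these counts.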
